A study of Mus musculus with 8 samples.

Results

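Cluster 1 is a population of hepatocyte nuclei in livers of mice with diet-induced steatohepatitis. It is 1 of 13 clusters in the deposited table of averaged nuclei and was taken by its cluster number, as the 2 columns of that cluster out of 26. The mutant animals were Tgfbr1 MKO mice (flox/flox; LysMcre), which carry floxed alleles of Tgfbr1, the type I receptor of TGF-beta, and a Cre recombinase expressed from the myeloid lysozyme locus. The controls carried the floxed alleles without Cre (flox/flox), and every animal had been on a MASH diet, a model of metabolic dysfunction-associated steatohepatitis, for 30 weeks. Nuclei of frozen liver were sorted after propidium iodide staining and profiled as 1 pool of 3 livers per genotype, and bulk RNA-seq gave 3 MKO and 3 control liver libraries, which no label ties to separate animals. The sources used here state neither sex nor age, nor whether the pooled livers were also sequenced in bulk.

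Hepatocytes divide their work along the liver lobule. Cells near the portal vein carry most of the urea cycle, gluconeogenesis and amino acid breakdown, while cells around the central vein, under Wnt signals, make glutamine synthetase and many cytochrome P450 enzymes. Hepatocytes also secrete most plasma proteins, which fold in the endoplasmic reticulum (ER), where the unfolded protein response raises the chaperones Hspa5 and Hsp90b1. Myeloid Cre is not designed to delete Tgfbr1 in hepatocytes, so the gene served here only as a check of levels.

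The value of a gene in a cluster is the authors' average, on a scale on which each column sums to 10000. With 1 pool per genotype there is no replicate, the number of nuclei behind an average is unknown, and no interval or p-value was given for any nucleus value. Ratios of the pools are descriptions of these 2 libraries. In cluster 1, 2-fold counts used only genes whose larger value reached a floor of 1.22, the 90th percentile of the values above 0 there. A pseudocount of 0.122 was added first. Genes under the floor enter where all measured members, or markers of other cell types, are counted. Genes picked in cluster 1 and followed into other clusters had no floor applied there. In cluster 1, 2040 of 22578 genes passed, and 2-fold is used below as a size, not as a test.

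Hepatocyte markers were high in the cluster, as its label says. All 20 genes of a hepatocyte list passed the floor, and their levels summed to 332 in the MKO pool and 316 in the control pool. The same sum reached at most 245 in the MKO pool and 168 in the control pool in the 10 clusters of other cell types, where it was never under 106 in the MKO pool and 61.0 in the control pool. Markers of other cell types were low. The sum of 21 macrophage markers was 1.82 in the MKO pool and 1.22 in the control pool, against 117 in the MKO pool and 92.0 in the control pool of cluster 2, where it was highest. For 16 endothelial markers the sum was 0.485 in the MKO pool and 0.395 in the control pool, and for 16 stellate markers it was 0.431 in the MKO pool and 0.457 in the control pool, with Des and Acta2 at 0. Tgfbr1 itself stood at 0.996 in the MKO pool and 1.12 in the control pool. In bulk, where values are read counts divided by a size factor per library, Tgfbr1 read 560.2, 857 and 735 in MKO libraries 1 to 3, against 737, 810.4 and 777 in control libraries 1 to 3, and the groups overlapped.

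Levels of mitochondrially encoded, ribosomal protein and Malat1 RNA differed between the pools. Mitochondrially encoded RNA summed to 38.3 in the MKO pool and 20.2 in the control pool of cluster 1, and was higher in the MKO pool in 9 of the 10 non-hepatocyte clusters. Ribosomal protein RNA summed to 60.6 in the MKO pool and 35.8 in the control pool of cluster 1. Malat1, a nuclear non-coding RNA, stood at 510.4 in the MKO pool and 351 in the control pool. Both were higher in the MKO pool in 10 of 10 non-hepatocyte clusters. Malat1 was also higher there in clusters 0 and 3. Ribosomal protein RNA summed to 51.5 in the MKO pool and 45.1 in the control pool of cluster 0. In cluster 3 it was lower in the MKO pool, at 56.9 against 67.7 in the control pool. Their part in the ratios between pools was not tested.

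The 5 markers given for the cluster were each higher there than in hepatocyte clusters 0 and 3 in both pools. Aox3 (chromosome 1, 58113130 to 58200698, + strand; GRCm38), an aldehyde oxidase, stood at 18.3 in the MKO pool and 17.6 in the control pool of cluster 1. In cluster 0 it stood at 8.46 in the MKO pool and 8.52 in the control pool, and in cluster 3 at 4.69 in the MKO pool and 4.53 in the control pool. Hsd17b6, which acts on androgens and retinoids, stood at 5.55 in the MKO pool and 7.52 in the control pool of cluster 1, against 4.26 in the MKO pool and 1.44 in the control pool of cluster 0. Ncam2 (chromosome 16, 81200697 to 81626828, + strand), a cell adhesion molecule, stood at 4.43 in the MKO pool and 5 in the control pool of cluster 1, against 1.09 in the MKO pool and 0.582 in the control pool of cluster 0 and 1.12 in the MKO pool and 1.67 in the control pool of cluster 3. Hsd3b2 of the 3-beta-hydroxysteroid dehydrogenases stood at 2.58 in the MKO pool and 2.6 in the control pool, and Mup12, a major urinary protein that carries pheromones, at 3.5 in the MKO pool and 2.24 in the control pool. Aox3, Mup12 and Hsd3b2 were lower in cluster 3 than in cluster 0 in both pools. Clusters were cut from these same nuclei, so all contrasts between them are descriptions.

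Over all genes, few separated cluster 1 from both neighbours. Of 2176 genes past the floor of the 6 hepatocyte columns (1.34), 5 (0.23%) were at least 2-fold higher in cluster 1 than in clusters 0 and 3 in both pools, and 10 (0.46%) were at least 2-fold lower. The higher genes were Ncam2, Upp2, Mup3, Aox3 and Gm36264, a predicted gene named here after its values were seen. Upp2, a uridine phosphorylase of pyrimidine salvage, stood at 10.1 in the MKO pool and 11 in the control pool of cluster 1, against 4.46 in the MKO pool and 4.17 in the control pool of cluster 0 and 1.09 in the MKO pool and 2.24 in the control pool of cluster 3. The 10 lower genes were Slc1a2, Cyp2c38, Glul, Airn, Lhpp, Lgr5, Mid1, Oat, Tox and Tbx3. Glul (chromosome 1, 153899944 to 153909723, + strand), glutamine synthetase of the cells nearest the central vein, stood at 0.174 in the MKO pool and 0.0868 in the control pool of cluster 1, against 3.38 in the MKO pool and 4.65 in the control pool of cluster 0. Slc1a2, a glutamate transporter, stood at 0.0545 in the MKO pool and 0.0494 in the control pool of cluster 1, against 4.63 in the MKO pool and 7.72 in the control pool of cluster 0 and 1.91 in the MKO pool and 3.03 in the control pool of cluster 3. Lgr5, an R-spondin receptor that enhances Wnt signals, and Tbx3, a Wnt target in liver, were lower too.

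**Figure D1:**
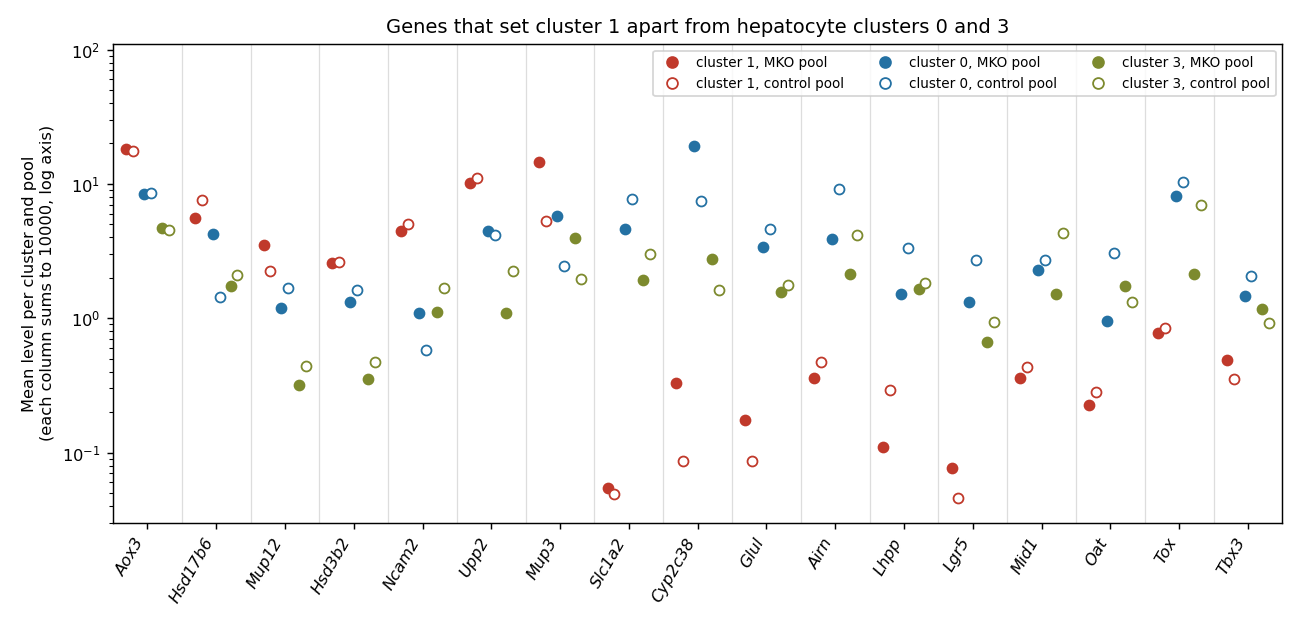
Mean level (log axis, each column summing to 10000) of the 5 given markers, then of the other genes at least 2-fold apart from clusters 0 and 3 in both pools. The predicted gene Gm36264 is not drawn. Filled points are the MKO pool and open points the control pool, in red for cluster 1, blue for cluster 0 and green for cluster 3; Slc1a2 in cluster 1 lies at 0.0545 against 0.0494 (MKO against control).

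Genes of the lobule's zones separated cluster 1 from cluster 0. Of 19 pericentral genes past that floor, 10 were at least 2-fold lower in cluster 1 than in cluster 0 in both pools and none was higher. The median log2 ratio of cluster 1 over cluster 0 was -1.03 in the MKO pool and -1.75 in the control pool for these genes, against -0.03 in the MKO pool and -0.02 in the control pool over all 2176 genes. For 25 periportal genes the median was 0.59 in the MKO pool and 1.24 in the control pool, with 5 at least 2-fold higher in cluster 1 in both pools and none lower. Against cluster 3, 5 of the 19 pericentral genes were at least 2-fold lower in both pools and none was higher, with a median of -0.18 in the MKO pool and -0.29 in the control pool. The periportal median against cluster 3 was -0.37 in the MKO pool and 0.40 in the control pool, on opposite sides of 0.

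The pools also differed in how far the 3 clusters lay apart. The SD of the log2 ratio of cluster 1 over cluster 0 was 0.489 in the MKO pool and 0.582 in the control pool, and over cluster 3 it was 0.653 in the MKO pool and 0.547 in the control pool. At least 2-fold higher in cluster 1 than in cluster 0 were 29 genes (1.33%) in the MKO pool and 67 (3.08%) in the control pool, and 19 (0.873%) were so in both pools. Lower than in cluster 0 were 54 (2.48%) in the MKO pool and 61 (2.8%) in the control pool, and 36 (1.65%) in both. Higher than in cluster 3 were 97 genes (4.46%) in the MKO pool and 62 (2.85%) in the control pool, and 31 (1.42%) in both. Lower than in cluster 3 were 109 (5.01%) in the MKO pool and 77 (3.54%) in the control pool, and 32 (1.47%) in both.

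Between the pools, 34 of the 2040 genes (1.67%) in cluster 1 were at least 2-fold higher in the MKO pool and 30 (1.47%) were at least 2-fold lower. The median log2 ratio over all 2040 was -0.08, with an SD of 0.424. Cluster 0 gave 41 higher (1.96%) and 31 lower (1.48%) of 2088 genes, and cluster 3 gave 82 (3.99%) and 72 (3.5%) of 2056. The higher genes included 4 of 22 acute phase genes and 3 of 9 ER stress genes past the floor, and the lower ones 6 of 37 urea cycle and amino acid genes. A gene could pass the floor through the pool where it was higher: 174 of the 2040 passed through the MKO pool alone and 235 through the control pool alone. The same holds for list members, so the lists described at length are also given over all measured members, where low genes lie near 0 through the pseudocount and the median over all 22578 genes was 0.00. With the floor set on the mean of both pools, an alternative chosen after seeing the data, 1826 genes passed, 27 higher and 23 lower. Of these 1826 genes, 712 lay above 0 and 1114 below. Over all 22578 genes, 10530 lay above 0 and 9865 below. Counts of list members on either side of 0 are to be read beside these. Counted only over genes that span at least 10000 bases, an alternative chosen after seeing the data, 13 were higher and 25 lower.

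**Figure D2:**
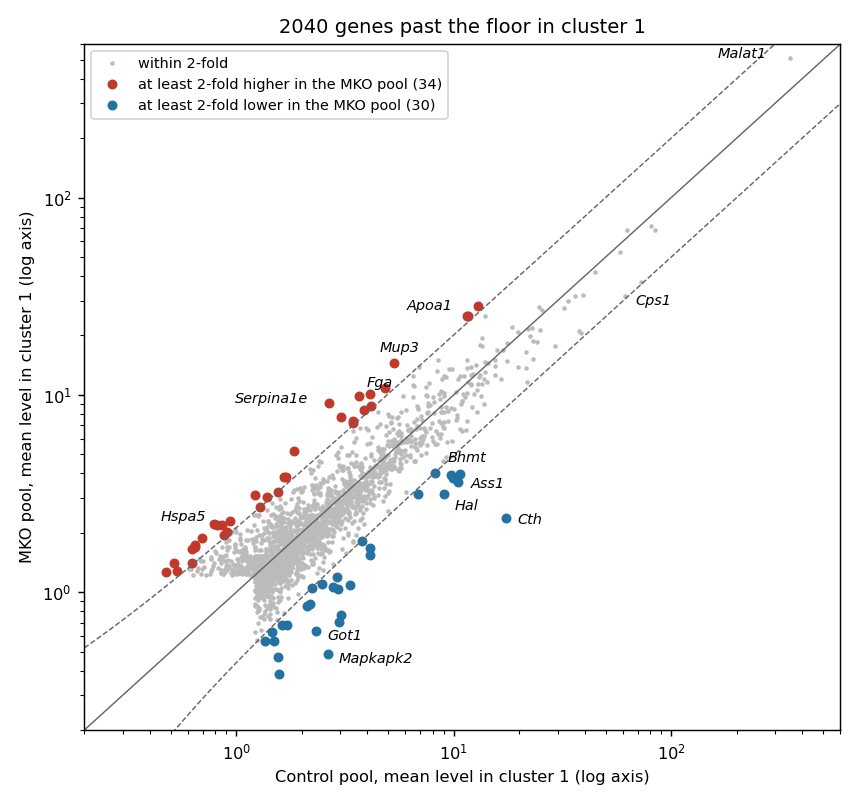
Mean level in cluster 1 of the 2040 genes past the floor, MKO pool on the vertical and control pool on the horizontal axis (both log axes, each column summing to 10000). The solid line marks equal levels and the dashed lines 2-fold with the pseudocount; 34 genes lie above the upper line and 30 below the lower one.

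Among the lower genes, Cth (chromosome 3, 157894248 to 157925077, - strand) had the most negative ratio. It encodes cystathionine gamma-lyase, which makes cysteine from cystathionine. Its level in cluster 1 was 2.36 in the MKO pool and 17.4 in the control pool, a log2 ratio of -2.82. In cluster 0 Cth stood at 2.15 in the MKO pool and 5.3 in the control pool, and in cluster 3 at 23.5 in the MKO pool and 7.27 in the control pool, a log2 ratio of 1.68. Cth was thus the gene with the lowest ratio in cluster 1 and was higher in the MKO pool in cluster 3. In bulk liver Cth read 8706, 9237 and 25686 in MKO libraries 1 to 3, against 6866, 8724 and 6768 in control libraries 1 to 3. MKO library 3 alone stood far above the other 5, and the groups overlapped. The log2 fold change was 0.78 ± 0.37 (SE, n = 3 each; adjusted p = 0.464 by limma). In bulk, fewer cells of a type and less RNA per cell cannot be told apart.

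Bhmt (chromosome 13, 93616675 to 93637961, - strand), which remethylates homocysteine to methionine with betaine, followed the same order. Its level was 3.94 in the MKO pool and 9.76 in the control pool of cluster 1, 2.94 in the MKO pool and 4.56 in the control pool of cluster 0, and 40.4 in the MKO pool and 3.75 in the control pool of cluster 3. Bulk liver read 57686, 43598 and 149966 in MKO libraries 1 to 3, against 52875, 50016 and 37781 in control libraries 1 to 3, again with MKO library 3 far above the rest. The bulk log2 fold change was 0.64 ± 0.42 (SE, n = 3 each; adjusted p = 0.63 by limma). Cbs, which joins homocysteine and serine, stood at 1.04 in the MKO pool and 2.22 in the control pool of cluster 1, and Mat1a, which makes S-adenosylmethionine, at 11.7 in the MKO pool and 21.8 in the control pool. Of 20 methionine and one-carbon genes past the floor, none was at least 2-fold higher in the MKO pool and 3 were lower (Cth, Bhmt and Cbs), with 17 below 0 and a median of -0.38. With the floor on the mean of both pools, 15 of 18 members lay below 0, against 1114 of all 1826 genes past that floor. Over all 35 measured members, 20 lay below 0 and the median was -0.10, against 9865 genes and 0.00 over all 22578 genes. Over all genes past the floor the median was -0.08. Of the 20 members past the floor, 3 had passed through the control pool alone. The median of the genes past the floor was -0.15 in cluster 0 and 0.68 in cluster 3, and the sum over the 35 measured genes was 62.3 in the MKO pool and 103 in the control pool of cluster 1, against 187 in the MKO pool and 80.1 in the control pool of cluster 3.

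The urea cycle and amino acid list leaned the same way. Of its 37 genes past the floor, 3 had passed through the control pool alone. None of the 37 was at least 2-fold higher and 6 were lower in the MKO pool, with 28 below 0 and a median of -0.34. With the floor on the mean of both pools, 35 passed, of which 5 were lower, with a median of -0.31. Of these 35, 26 lay below 0, against 1114 of all 1826 genes past that floor. Over all 44 measured members 33 lay below 0, with a median of -0.30, against 9865 of all 22578 genes. Past the floor, the median was -0.01 in cluster 0 and 0.41 in cluster 3. Ass1, argininosuccinate synthase of the urea cycle, stood at 3.61 in the MKO pool and 10.4 in the control pool of cluster 1, and at 6.84 in the MKO pool and 7.26 in the control pool of cluster 3. Cps1, which starts the urea cycle, stood at 31.5 in the MKO pool and 61 in the control pool of cluster 1, a log2 ratio of -0.95 that fell short of 2-fold. Got1, the cytosolic aspartate aminotransferase, stood at 0.634 in the MKO pool and 2.33 in the control pool of cluster 1, against 6.25 in the MKO pool and 2.98 in the control pool of cluster 3. Agxt, which detoxifies glyoxylate, stood at 0.387 in the MKO pool and 1.57 in the control pool, and Hal, which opens histidine breakdown, at 3.15 in the MKO pool and 8.99 in the control pool of cluster 1.

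More enzymes of amino acid use were lower in cluster 1. Aass, which opens lysine breakdown, stood at 3.81 in the MKO pool and 9.89 in the control pool, and Sds, serine dehydratase, at 3.14 in the MKO pool and 6.82 in the control pool. Etnppl, which breaks down phosphoethanolamine, stood at 0.77 in the MKO pool and 3.02 in the control pool. Slc7a2, a transporter of arginine and lysine and among the most abundant transcripts of the cluster, stood at 37.4 in the MKO pool and 72.7 in the control pool, a log2 ratio of -0.96. The periportal list, which shares genes with these lists, had 4 of 23 members at least 2-fold lower and none higher, with a median of -0.27. Over all 30 measured members, 14 lay above 0 and 16 below, with a median of -0.08. Of the 23, 1 had passed the floor through the control pool alone and 1 through the MKO pool alone. Its sum in cluster 1 was 172 in the MKO pool and 259 in the control pool, whereas in cluster 3 it was 253 in the MKO pool and 191 in the control pool.

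**Figure D3:**
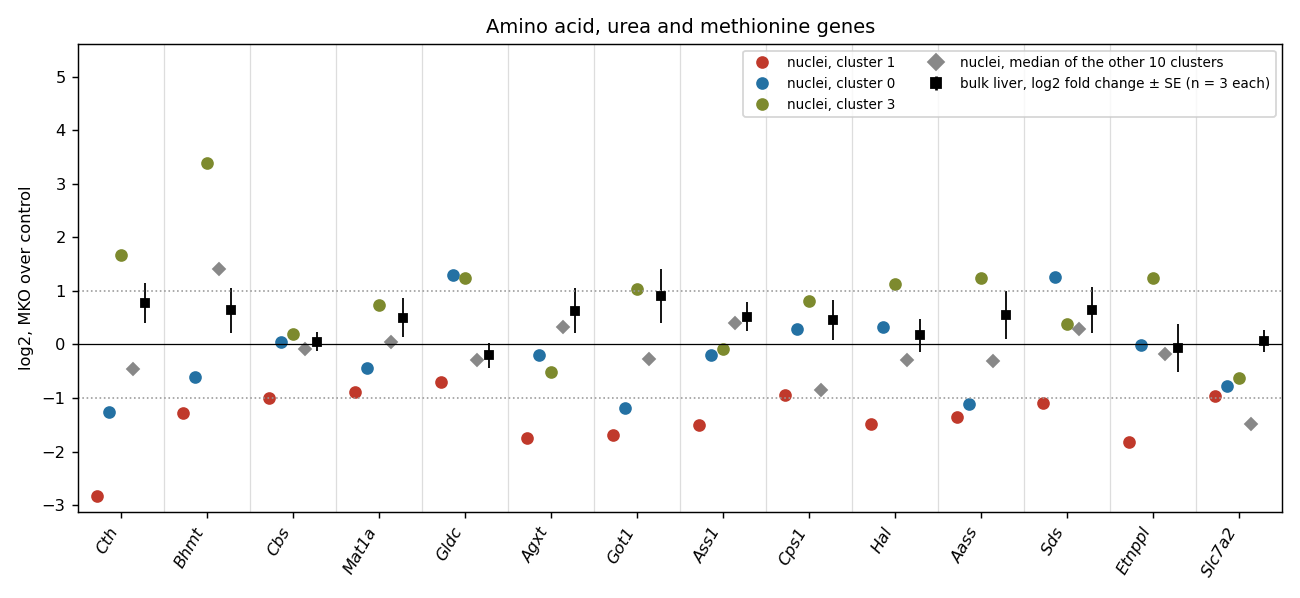
Log2 of MKO over control for 14 amino acid, urea and methionine genes, in nuclei of cluster 1 (red), cluster 0 (blue) and cluster 3 (green), as the median of the other 10 clusters (grey diamonds), and in bulk liver (black squares, fold change ± SE, n = 3 each). Dotted lines mark 2-fold, and all 14 red points lie below 0, from -2.82 for Cth to -0.70 for Gldc. Most of the 14 were named for their ratio, so their shared side of 0 follows in part from that choice. Past the floor, 9 of 37 urea cycle and amino acid genes and 3 of 20 methionine and one-carbon genes lay above 0.

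Bulk liver gave no call for these lists. Of 44 urea and amino acid genes tested in bulk, limma, edgeR and DESeq2 each called 0 at an adjusted p under 0.05, and 0 had an unadjusted limma p under 0.05. Of 35 methionine genes, limma, edgeR and DESeq2 called 0, with 1 at an unadjusted p under 0.05. Over all genes tested, 12.1% had such a limma p. The bulk medians were 0.15 and -0.01, against -0.02 over all 15249 genes tested.

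Other lower genes of cluster 1 belonged to no single list. Mapkapk2, a kinase downstream of p38, stood at 0.485 in the MKO pool and 2.63 in the control pool, and Trp53inp1, a p53-induced gene of stress and autophagy, at 0.703 in the MKO pool and 2.98 in the control pool. Ppargc1a, the fasting-induced coactivator of gluconeogenesis and mitochondrial genes, stood at 1.09 in the MKO pool and 3.32 in the control pool, and Plk3, a stress-responsive kinase, at 0.468 in the MKO pool and 1.55 in the control pool. Igfbp2, a binding protein of insulin-like growth factors, stood at 3.99 in the MKO pool and 10.7 in the control pool, and Angptl8, a feeding-induced regulator of lipoprotein lipase, at 1.07 in the MKO pool and 2.79 in the control pool. Rdh16, a retinol dehydrogenase, stood at 1.04 in the MKO pool and 2.95 in the control pool, and Pik3ap1, an adaptor of PI3 kinase, at 1.55 in the MKO pool and 4.13 in the control pool. Abcb11 (chromosome 2, 69238282 to 69342616, - strand), the bile salt export pump, stood at 4.03 in the MKO pool and 8.22 in the control pool of cluster 1, whereas cluster 0 had 13.5 in the MKO pool and 9.91 in the control pool. Abcg5, which exports sterols, stood at 0.868 in the MKO pool and 2.18 in the control pool of cluster 1.

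The higher genes of cluster 1 were led by Serpina1e (chromosome 12, 103946931 to 103958975, - strand), an alpha-1-antitrypsin paralog. It stood at 9.13 in the MKO pool and 2.66 in the control pool of cluster 1, a log2 ratio of 1.73. In cluster 0 it stood at 1.97 in the MKO pool and 0.809 in the control pool. Serpina1e was also higher in the MKO pool in every non-hepatocyte cluster, whereas cluster 3 had 3.94 in the MKO pool and 4.19 in the control pool. Acute phase genes had 4 of 22 members at least 2-fold higher and none lower, with 15 above 0 and a median of 0.64. Over all 40 measured members 31 lay above 0, against 10530 of all 22578 genes, with a median of 0.49. Past the floor the median was 0.83 in cluster 0, 0.14 in cluster 3 and 0.32 in the 10 non-hepatocyte clusters, and in bulk it was -0.17 over 40 genes. Fibrinogen has alpha, beta and gamma chains. Fga stood at 9.85 in the MKO pool and 3.67 in the control pool, Fgb at 13.8 in the MKO pool and 6.95 in the control pool and Fgg at 10.1 in the MKO pool and 4.12 in the control pool of cluster 1; Fgb had a log2 ratio of 0.97, just under 2-fold. Serpina3k, a serine protease inhibitor, stood at 3.09 in the MKO pool and 1.22 in the control pool. Fgl1, a fibrinogen-like secreted protein outside the acute phase list, stood at 2.21 in the MKO pool and 0.789 in the control pool.

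Of 36 complement and coagulation genes past the floor, 6 of them through the MKO pool alone, none reached 2-fold in either direction, while 32 lay above 0 with a median of 0.42. Over all 43 measured members 37 lay above 0, against 10530 of all 22578 genes, with a median of 0.40. Past the floor, the median was 0.27 in cluster 0 and 0.00 in cluster 3. C8g of the membrane attack complex stood at 2.07 in the MKO pool and 1.12 in the control pool. Of 17 cholesterol and lipoprotein genes past the floor, 3 were at least 2-fold higher and 1 lower, with 8 above 0, 9 below 0 and a median of -0.01; the median was 0.12 with the floor at the 80th percentile and 0.59 with the floor at the 95th. Apoa1 of high density lipoprotein stood at 25.2 in the MKO pool and 11.6 in the control pool and Apoe at 28.3 in the MKO pool and 12.9 in the control pool, whereas Apob of very low density lipoprotein stood at 13.6 in the MKO pool and 21.6 in the control pool, a log2 ratio of -0.66. Apoa1 and Apoe were higher in the MKO pool in all 10 non-hepatocyte clusters, with median log2 ratios of 0.94 for Apoa1 and 0.92 for Apoe.

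Of 21 measured major urinary proteins 4 passed the floor, 2 of them (Mup1 and Mup21) through the MKO pool alone, and 3 were at least 2-fold higher. Over all 21 measured members 19 lay above 0, against 10530 of all 22578 genes, with a median of 0.21. Mup3 (chromosome 4, 62083476 to 62087342, - strand) stood at 14.5 in the MKO pool and 5.32 in the control pool, and the whole family summed to 25.9 in the MKO pool and 11.3 in the control pool. The family was higher in the MKO pool in 10 of 10 non-hepatocyte clusters as well. Bulk liver read 67366, 47863 and 68107 in MKO libraries 1 to 3, against 119395, 108016 and 61609 in control libraries 1 to 3 for Mup3. Most MKO values were below most control values, with overlap, and the bulk log2 fold change was -0.62 ± 0.30 (SE, n = 3 each; adjusted p = 0.483 by limma). The bulk median of 19 family members was -0.59. Of these, limma and edgeR called 0, DESeq2 called 2 lower, and 6, all lower, had an unadjusted limma p under 0.05. Over all 15249 genes DESeq2 called 50 lower. An unadjusted limma p under 0.05 was found for 12.1% of them, with 8.368% higher and 3.745% lower. Mup, Serpina1, Serpina3, Hsd3b and Cyp genes have near-identical copies between which reads may be split uncertainly.

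The ER chaperones Hspa5 and Hsp90b1 were among the genes at least 2-fold higher in the MKO pool. Sequences near their starts, and near that of the co-chaperone gene Dnajc3, which did not reach 2-fold, are shown because they hold the letters of a motif known from the unfolded protein response. The ER stress response element, CCAAT and CCACG with any 9 bases between them, is in capitals, and the sequences run on the gene's own strand (RefSeq, GRCm38.p6).
Hspa5, chr2:34772015-34772053, + strand: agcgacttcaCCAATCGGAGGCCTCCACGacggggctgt
Hsp90b1, chr10:86705523-86705666, - strand: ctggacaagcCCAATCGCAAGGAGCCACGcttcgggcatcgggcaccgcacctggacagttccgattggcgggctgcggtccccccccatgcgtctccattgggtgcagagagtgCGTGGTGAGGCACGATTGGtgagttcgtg
Dnajc3, chr14:118937817-118937855, + strand: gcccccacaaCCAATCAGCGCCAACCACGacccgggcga
In Hsp90b1 the second stretch in capitals is the element on the opposite strand. The element was found in the 300 bases around the start of 3 of 8 listed ER genes past the floor with a promoter, of 0.38% of the 1593 genes past the floor with a promoter, and of 0.14% of 27025 genes with one. It was found in 2 of 24 genes of the higher set and in 0 of 24 of the lower set. It was displayed after the counts of all 14 motifs searched had been seen, and a match is a description of the letters only.

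The other 13 motifs, searched on both strands, were the cAMP response element TGACGTCA, its shorter form TGACG, forms of the HNF4 motif (CAAAGTCCA and CAAAGGTCA), the C/EBP motif TTGCGCAA and the C/EBP-ATF element TGATGCAAT. The TATA motif TATAAA, the STAT motif TTCNNNGAA, the TCF motif CTTTGAA and the CCAAT box were searched too. The HNF1 motif was searched as GTTAAT followed after 1 base by its reverse complement ATTAAC. The glucocorticoid response element was searched as AGAACA followed after 3 bases by its reverse complement, and the direct repeat of nuclear receptors as AGGTCA followed after 1 base by the same letters. TGACG is contained in TGACGTCA, and CCAAT in the ER stress response element. Both sets come from genes past the floor, so each share is set beside that of the 1593 genes past the floor with a promoter. TGACGTCA was in 0 of 24 promoters of either set and in 3.26% of those past the floor. CAAAGGTCA was in 0 of 24 higher genes, 2 of 24 lower genes (Bhmt and Cyp3a59) and 0.75% past the floor. CCAAT was in 15 of 24 higher genes (62.5%), 10 of 24 lower genes (41.7%) and 43.6% past the floor. TATAAA was in 6 of 24 higher genes (25%), 3 of 24 lower genes (12.5%) and 12.4% past the floor. TGACG was in 6 of 24 higher genes (25%), 9 of 24 lower genes (37.5%) and 34.8% past the floor, and TTCNNNGAA in 3 of 24 higher genes (12.5%), 1 of 24 lower genes (4.17%) and 8.54% past the floor. TGATGCAAT and CTTTGAA were each in 0 of 24 higher and 1 of 24 lower genes, against 0.19% and 5.02% past the floor. The remaining 5 motifs were in no promoter of either set and in at most 0.75% past the floor.

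Of 29 measured ER and integrated stress genes, 21 lay above 0 in cluster 1, against 10530 of all 22578 genes. Their median was 0.14. Past the floor were 9, of which Hspa5 had passed through the MKO pool alone; 3 of the 9 were at least 2-fold higher in the MKO pool and the median was 0.57. Hspa5 (chromosome 2, 34771970 to 34777547, + strand), the main ER chaperone BiP, stood at 2.2 in the MKO pool and 0.86 in the control pool. Hsp90b1, its partner GRP94, stood at 3.85 in the MKO pool and 1.65 in the control pool, and Sel1l of ER-associated degradation at 3.04 in the MKO pool and 1.38 in the control pool. Dnajc3, a co-chaperone named here for its promoter, stood at 2.06 in the MKO pool and 1.25 in the control pool. Pdia3, which forms disulfide bonds in glycoproteins, is not in this list and is not among its counts. It stood at 2.19 in the MKO pool and 0.814 in the control pool, and passed the floor through the MKO pool alone. Herpud1, which is induced by ER stress, stood at 5.11 in the MKO pool and 3.4 in the control pool of cluster 1. Past the floor the list's median was 0.56 in cluster 0 and -0.36 in cluster 3, where Hspa5 stood at 0.644 in the MKO pool and 0.976 in the control pool.

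In bulk liver Hspa5 read 9922, 9779 and 7486 in MKO libraries 1 to 3, against 11251, 15962 and 7067 in control libraries 1 to 3. The groups overlapped, and the log2 fold change was -0.27 ± 0.27 (SE, n = 3 each; adjusted p = 0.777 by limma). Over the 29 ER genes in bulk, limma and edgeR called 0 and DESeq2 called 1 lower. Of the 29, 3 had an unadjusted limma p under 0.05, all of them lower, and the median was -0.27. Over all 15249 genes DESeq2 called 50 lower, and 12.1% had such a limma p, with 8.368% higher and 3.745% lower. The median of this list was thus above 0 in cluster 1 and below 0 in bulk.

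**Figure D4:**
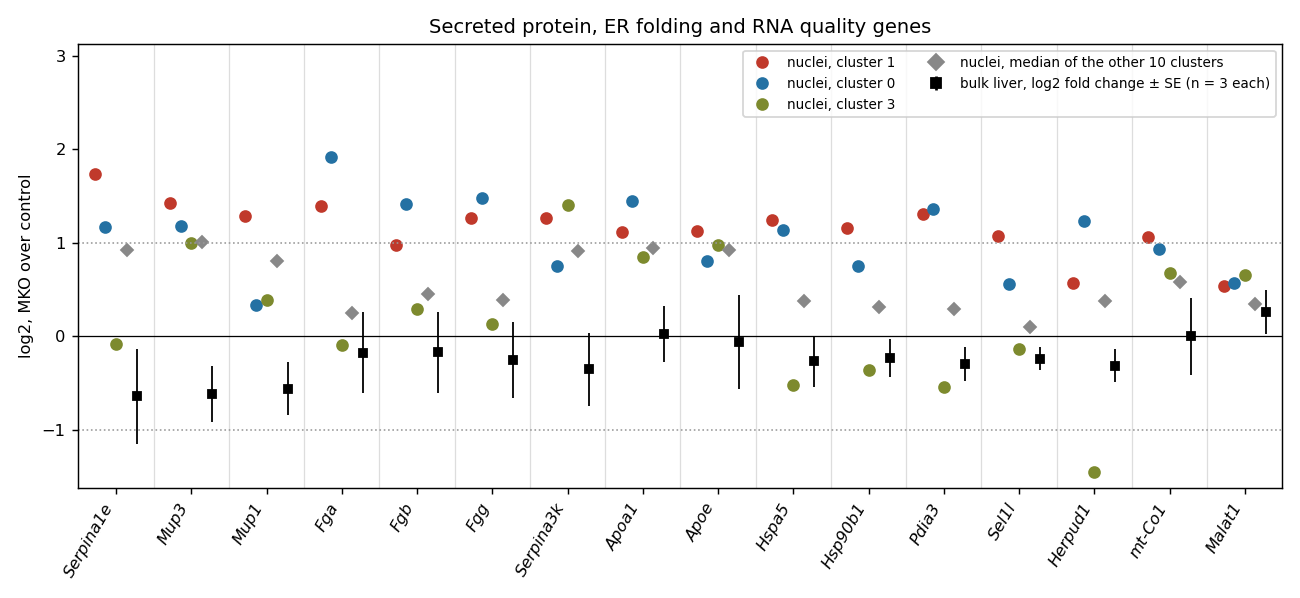
Log2 of MKO over control for secreted proteins, ER chaperones, mt-Co1 and Malat1, in nuclei of cluster 1 (red), cluster 0 (blue) and cluster 3 (green), as the median of the other 10 clusters (grey diamonds), and in bulk liver (black squares, fold change ± SE, n = 3 each). All red points lie above 0, as do the grey diamonds, and the bulk squares lie at or below 0 except Apoa1 (0.02) and Malat1 (0.26). Most of these genes were named for their ratio in cluster 1, so the shared side of the red points follows in part from that choice. Past the floor, 7 of 22 acute phase genes and 0 of 9 ER genes lay below 0 in cluster 1.

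Most of the higher genes were higher in other clusters too. Of the 34, 31 were above 0 in cluster 0, 23 in cluster 3, and 32 by the median of the 10 non-hepatocyte clusters, with median log2 ratios of 0.88, 0.46 and 0.57. Of the 30 lower genes, 25 were below 0 in cluster 0, 15 in cluster 3 and 23 by the median of the 10 others. Shared with the 2-fold genes of cluster 0 were 10 higher genes, 29.4% of the 34 and 24.4% of the 41, and 7 lower genes, 23.3% of the 30 and 22.6% of the 31. Clusters 0, 1 and 3 come from the same 2 pools, so these counts are not independent. In bulk, 6 of 33 higher genes tested lay above 0, with a median log2 fold change of -0.15. Of the 30 lower genes, 12 lay below 0 in bulk, with a median of 0.04. The bulk median over all genes past the floor was -0.09.

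The higher genes were short. The median span was 7326 bases for the 34 higher genes and 30684 for the 30 lower ones, against 68692 over all genes past the floor. In the shortest of 5 classes, from 681 to 22848 bases, the median log2 ratio in cluster 1 was 0.19, with 24 genes at least 2-fold higher and 10 lower. In the longest class, from 155091 bases up, it was -0.16, with 1 higher and 1 lower. Clusters 0 and 3 and the other 10 clusters had the same order, at 0.17, 0.19 and 0.10 in the shortest class and -0.17, -0.23 and -0.28 in the longest. In bulk the medians were -0.07 and -0.08. The part of gene span in the ratios of single genes was not tested.

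**Figure D5:**
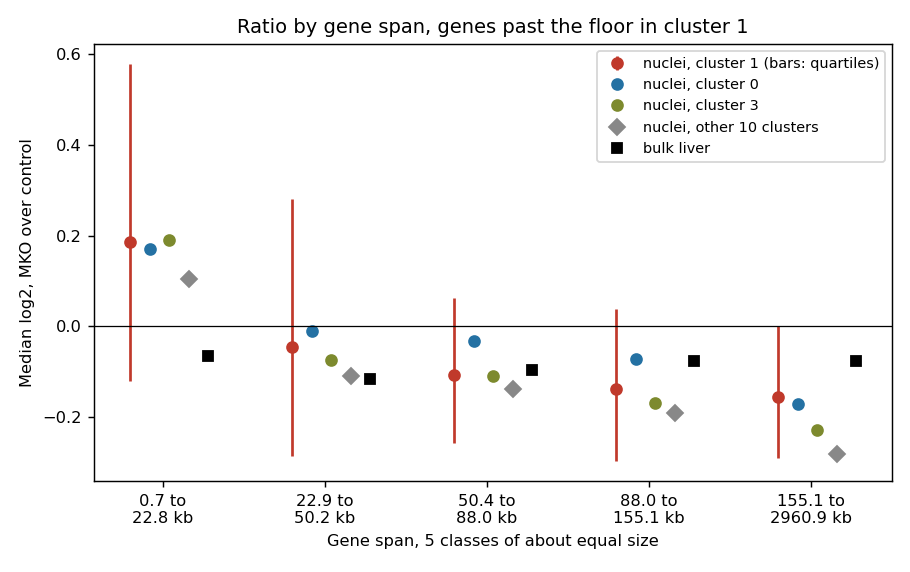
Median log2 of MKO over control in 5 classes of gene span with 406 or 407 genes each, for nuclei of cluster 1 (red, bars spanning the quartiles), cluster 0 (blue), cluster 3 (green), the other 10 clusters (grey diamonds) and bulk liver (black squares). In cluster 1 the median lies at 0.19 in the shortest class and at -0.16 in the longest.

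Lists of fatty acid, lipid, glucose and P450 genes had medians between -0.18 and 0.02 in cluster 1. Of 27 fatty acid oxidation genes past the floor, none was at least 2-fold higher and 1 was lower (Ppargc1a), with a median of -0.09. Acsl1, which activates fatty acids, stood at 17.6 in the MKO pool and 29.1 in the control pool. Of 14 lipogenesis and lipid droplet genes none reached 2-fold, with a median of -0.18, and none of 17 glucose and insulin genes did, with a median of -0.09. Of 19 cytochrome P450 genes 1 was higher (Cyp2d9, 3.23 against 1.55, MKO against control) and 1 lower (Cyp3a59, 0.852 against 2.1), with a median of 0.02. None of 30 hepatocyte transcription factors reached 2-fold, with a median of -0.03, a value that turned positive when the ratios were centred on their median. Of 14 conjugation enzymes past the floor 1 was at least 2-fold higher and none lower, with 12 above 0 and a median of 0.18; over all 45 measured the median was 0.12. Cyp7a1, the rate-limiting enzyme of bile acid synthesis, stood at 3.82 in the MKO pool and 1.69 in the control pool, and its bulk log2 fold change was 0.78 ± 0.26 (SE, n = 3 each; adjusted p = 0.223 by limma).

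Of 53 measured interferon-stimulated and antigen processing genes, 49 lay above 0 in cluster 1, against 10530 of all 22578 genes. Their median was 0.25. Past the floor were 6, and 1 of them, H2-D1, was at least 2-fold higher in the MKO pool, having passed through that pool alone. H2-D1, a class I heavy chain, stood at 1.41 in the MKO pool and 0.623 in the control pool, and B2m, its light chain, at 3.22 in the MKO pool and 1.82 in the control pool. The median over the 10 non-hepatocyte clusters was 0.62 for the 6 genes. In bulk, limma called 13 of the 53 higher and 0 lower, with 36 at an unadjusted p under 0.05 and a median of 0.63. Over all genes limma called 2.96% higher, and 12.1% had an unadjusted p under 0.05. Of the 21 macrophage markers, limma called 16 higher in bulk, with a median of 1.52. Markers of other cell types differed by type in cluster 1. Higher in the MKO pool there were 20 of 21 macrophage, 10 of 11 dividing cell and 14 of 17 T and NK cell markers. So were 12 of 16 endothelial, 9 of 16 stellate, 6 of 11 B lineage and 4 of 6 neutrophil markers. Of cholangiocyte markers 4 of 13 were higher, and of mesothelial markers 3 of 7. No macrophage, dividing cell, T and NK cell, endothelial or stellate marker stood above 0.897 in either pool. Of all 17690 genes above 0 and up to that level, 53.3% were higher in the MKO pool. The part of other cells' RNA was not tested.

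Genes restricted to hepatocytes were then followed into bulk liver, where reads come from every cell. Restricted genes passed the floor of cluster 1 and averaged at least 4-fold more in clusters 0, 1 and 3 than in any other cluster in both pools. Of 188 such genes tested by limma on log2(value + 1), none was called higher and none lower at an adjusted p under 0.05, where 452 (2.96%) of all 15249 genes were called higher and 13 (0.0853%) lower. At an unadjusted limma p under 0.05 there were 20 (10.6% of the 188), of which 3 were higher (1.596%) and 17 lower (9.043%). Over all genes the share was 12.1%, with 8.368% higher and 3.745% lower. Over the 2011 genes past the floor it was 7.91%, with 34 higher (1.691%) and 125 lower (6.216%). For the restricted genes, edgeR called 0, and DESeq2 called 0 higher and 5 lower. Over all 15249 genes DESeq2 called 634 higher and 50 lower. Of the 188, groups did not overlap for 3 genes with MKO above and 22 with MKO below, against 10.4% and 9.02% of all genes. The median log2 fold change was -0.11 for the restricted genes and -0.02 for all genes. Without control replicate 2, MKO replicate 2 or MKO replicate 3, limma called 238, 175 and 181 genes higher of all genes; without control replicate 3, MKO replicate 1 or MKO replicate 3 it called 1, 3 and 1 restricted genes lower.

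None of the 5 markers of cluster 1 was called in bulk by limma with all libraries and no replicate block. Hsd3b2 read 1031, 529 and 553 in MKO libraries 1 to 3, against 1603, 1155 and 1045 in control libraries 1 to 3. All MKO values were below all control values, and the log2 fold change was -0.89 ± 0.27 (SE, n = 3 each; adjusted p = 0.164 by limma). DESeq2 called it, with an adjusted p of 0.0466, as did limma without MKO replicate 1, at 0.0183; over all alternatives the adjusted p lay between 0.0173 and 0.433. Aox3 had a bulk log2 fold change of -0.31 ± 0.21 (SE, n = 3 each; adjusted p = 0.629 by limma). Of 33 higher and 30 lower genes of cluster 1 tested in bulk, limma, edgeR and DESeq2 called 0, with 5 and 4 at an unadjusted limma p under 0.05, where 7.91% of the genes past the floor had one.

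In bulk, 5 genes past the floor of cluster 1 were called, all lower in MKO libraries, and are named after their values were seen. They were Osgin1 and Gclc, both NRF2 targets, Cpeb2, Abhd17c and Zfp36l1, and none was hepatocyte-restricted. Gclc, which limits glutathione synthesis, read 7716, 5539 and 5066 in MKO libraries 1 to 3, against 11018, 10651 and 12113 in control libraries 1 to 3. MKO values were all below control values, and the log2 fold change was -0.90 ± 0.17 (SE, n = 3 each; adjusted p = 0.0257 by limma). In cluster 1 Gclc stood at 6.15 in the MKO pool and 5.71 in the control pool, a log2 ratio of 0.11. Osgin1, a growth inhibitor induced by oxidative stress, had a bulk log2 fold change of -1.08 ± 0.21 (SE, n = 3 each; adjusted p = 0.0293 by limma), and a log2 ratio of 0.28 in cluster 1. Each of these 5 calls was lost without control replicate 1, 2 or 3, and all but that of Osgin1 without MKO replicate 2 or 3; that of Cpeb2 was also lost without MKO replicate 1. The adjusted p lay between 0.0544 and 0.182 in those fits. Quantile normalisation also lost all 5, at adjusted p between 0.0682 and 0.11.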

How the data were processed

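The submitters' processing notes name the mm10 build, Seurat 4.0.1, Cell Ranger, DESeq2, RSEM 1.3.3, STAR and FastQC, with no roles or settings. The deposited nucleus values are a signal, the authors' mean per gene, cluster and pool. Each of the 26 columns sums to 10000. The sources used here state no nucleus numbers, filters, clustering or doublet removal. The deposited bulk values are a signal too: counts divided by a size factor per library. Whole reads came back for 100% of values within a tolerance of 0.01, 17448117 to 23986319 per library. The authors' deposited log2 fold changes and p-values for bulk were not used for any result.

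Log2 ratios used a floor at the 90th percentile and a pseudocount of 1/10 of it. Bulk values were tested with limma 3.58.1 on log2(value + 1) for 15249 genes with a mean of at least 1, Benjamini-Hochberg adjusted; fold changes of low genes are understated. edgeR 4.0.16 and DESeq2 1.42.0 were run on the recovered reads; edgeR called 468 genes higher and 14 lower. The code was tested on simulated data. No label states that each library is a separate animal; the p-values reflect library-to-library spread, which may be technical. Positions are from GENCODE vM21 (GRCm38), and gene span was found for 99.6% of genes past the floor. Promoters are from RefSeq and were found for 24 of 34 higher and 24 of 30 lower genes.

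The members and gene lists were chosen with earlier results of these data known. Named genes are the given markers, the most abundant genes, the leading genes of each contrast by ratio, the leading and most abundant members of each list, bulk calls among restricted genes, and Tgfbr1. The 14 promoter motifs were chosen after the ratios were seen. Alternatives are listed in the closing section.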

Additional observations from a re-analysis of the deposited data

Results flagged for a closer look

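9 genes were at least 2-fold lower in the MKO pool in cluster 1 and at least 2-fold higher there in cluster 0 or cluster 3. No floor was applied to their levels in clusters 0 and 3. With 1 pool per genotype, none of these differences was tested. Sds, of serine breakdown, had a log2 ratio of MKO over control of -1.09 in cluster 1 and 1.25 in cluster 0, a difference of -2.34. Cth, of cysteine synthesis, had a log2 ratio of MKO over control of -2.82 in cluster 1 and 1.68 in cluster 3, a difference of -4.50. Etnppl, of phosphoethanolamine breakdown, had a log2 ratio of MKO over control of -1.82 in cluster 1 and 1.24 in cluster 3, a difference of -3.06. Got1, of aspartate transamination, had a log2 ratio of MKO over control of -1.70 in cluster 1 and 1.04 in cluster 3, a difference of -2.73. Hal, of histidine breakdown, had a log2 ratio of MKO over control of -1.48 in cluster 1 and 1.14 in cluster 3, a difference of -2.61. Aass, of lysine breakdown, had a log2 ratio of MKO over control of -1.35 in cluster 1 and 1.24 in cluster 3, a difference of -2.59. Bhmt, of homocysteine remethylation, had a log2 ratio of MKO over control of -1.28 in cluster 1 and 3.39 in cluster 3, a difference of -4.67. Gm15622, named here only for this opposite direction, had a log2 ratio of MKO over control of -1.23 in cluster 1 and 3.20 in cluster 3, a difference of -4.43. Nckap5, named here only for this opposite direction, had a log2 ratio of MKO over control of -1.06 in cluster 1 and 1.03 in cluster 3, a difference of -2.09. The pools differ in mitochondrial RNA and in ribosomal protein RNA, the latter being lower in the MKO pool in cluster 3. The part of these RNAs in the differences above was not tested.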

How the results depend on the processing

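Under the nucleus alternatives, the counts of 34 higher and 30 lower genes in cluster 1 became 93 and 48 with the floor at the 80th percentile, 19 and 18 at the 95th percentile, and 157 and 132 at 1.5-fold. Over genes of at least 10000 bases, an alternative chosen after seeing the data, 13 were higher and 25 lower. At the 80th percentile the counts against clusters 0 and 3 became 9 higher and 19 lower, where 5 and 10 had passed. Centring the ratios on their median, which shifts them by 0.08, gave 46 higher and 26 lower genes (63.9% of calls higher, against 53.1%). The 80th percentile gave 66.0% higher and the span limit 34.2%. Setting the floor on the mean of both pools, also added later, gave 27 and 23. Rescaling without the 10 most abundant genes gave 36 and 28, and rescaling without mitochondrial, ribosomal protein and Malat1 RNA, added later too, gave 38 and 27, of which 33 and 27 were among the original ones. Of 973 values of 141 named genes, 16 dropped under 2-fold, 5 rose past it and 0 changed sign after passing it; 15 of 207 list medians moved by over 0.25 or changed side of 0.

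In bulk, quantile normalisation gave 7 lower genes where 13 had been called, and DESeq2 gave 50. Leaving out 1 library at a time gave 175 to 410 higher and 5 to 31 lower genes, and 0 to 3 restricted genes lower. Restricted genes called lower numbered 2 with the replicate block, 5 with DESeq2 and 1 with the 2-fold definition. No label states that replicate numbers pair the libraries. Deviations of same-numbered libraries correlated at 0.08, -0.02 and -0.11, and those of differently numbered ones between -0.14 and 0.19. Correlations from so few libraries cannot decide whether there was a pairing. The replicate block gave 391 higher and 17 lower genes; under it Hsd3b2 was called (adjusted p = 0.0173), and Cpeb2, Abhd17c and Zfp36l1 were not (0.0675, 0.135 and 0.0887). Over 2044 comparisons of 146 named genes in bulk, 32 lost and 8 gained a call, and 131 values of uncalled genes changed sign. The cause of these shifts was not tested. The nucleus averages carry no depth, so small levels cannot be told from 0.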
